A study of Mus musculus with 2 samples.

Results

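The genes described here encode proteins that the liver secretes into blood plasma: coagulation factors, fibrinogen chains, complement components, inter-alpha-trypsin inhibitors and carriers. A list of 42 such genes was read in diaphragm muscle of mouse embryos at stage E18.5, shortly before birth, out of 14093 genes that could be read above a floor on low signals. Members were chosen by name, with earlier results of these data known. Each gene took the value of its brightest probe set, by the mean of both arrays, among those annotated with a single gene symbol. By this rule 40 of the 42 genes had a value, and C3 and Cpb2 were not analysed here. The study held 2 arrays of C57/BL6 embryos, 1 labelled RP58+/+ (wild type) and 1 labelled RP58-/- (knockout), with no further treatment named in the labels. RP58, now named Zbtb18, is a zinc finger protein that represses transcription. The comparison asks how muscle RNA differs without it. The sources used here give neither the design of the disrupted allele nor the number of embryos behind each array. The arrays are called wild-type and knockout arrays by their labels.

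Hepatocytes make most of the proteins that clot blood and most of the complement proteins that mark and lyse microbes. The clotting factors are mainly proteases that circulate as inactive precursors and activate one another in turn, until thrombin cuts fibrinogen into fibrin. Complement works in the same stepwise way, through C3 and C5 to the pore of the terminal components. Muscle fibres are not a main source of these proteins. In the embryo the liver lies directly beneath the diaphragm.

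The measure is the log2 signal of a probe set after RMA normalisation, and a difference is the knockout array minus the wild-type array. A single array per genotype gives no spread between embryos, so the differences are untested and have no replicate check. Genes that differed by at least 1.5-fold were called higher or lower (0.58 on the log2 scale). The only repeat measurement was that of several probe sets for a gene, whose differences had a pooled SD of 0.28 over 5675 genes. The probe set of Zbtb18 differed by 0.30, upwards, and the sources used here do not say where it lies relative to the disrupted part, so it did not check the labels. The female-specific RNA Xist was at 11.47 on the wild-type array and 6.96 on the other, and the Y-linked gene Kdm5d at 4.09 and 7.40, so genotype and a signal of sex cannot be told apart. All 12 muscle fibre markers, among them skeletal actin, fast troponins and muscle creatine kinase, had mean signals above the floor.

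The plasma protein genes were higher on the knockout array nearly throughout. Of the 40 genes read, 39 lay above 0, and 30 (75%) were higher by at least 1.5-fold, against 3.83% of all genes above the floor. None was lower by that much, against 6.51% of all genes. Of the 40, 12 were higher by at least 2-fold, against 0.908% of all genes, and 49.4% of all genes lay above 0 by any amount. Members were listed with earlier results of these data known, so these shares describe the list and do not test it. The median difference was 0.88 (1.84-fold), whereas that of all genes was -0.003. The 24 probe sets of the poly-A spike-in controls (dap, lys, phe and thr) had a median of -0.75. On a scale set by these controls each difference would be 0.75 higher, and 9990 of all genes would pass the size rule upwards. Differences are given here between the deposited RMA signals without recentring, a scale on which the median gene lay at -0.003. The middle 50% of the members ran from 0.60 to 1.02, and the full range from -0.12 (Pros1) to 1.41 (C8b). The signals ran from 6.21 (C9) to 13.67 (Ttr) on the wild-type array and from 6.53 to 14.02 on the knockout array, so each of the 40 was above the floor of 5.52 on both. In a bulk sample, more cells of a type and more RNA per cell cannot be told apart.

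**Figure D1:**
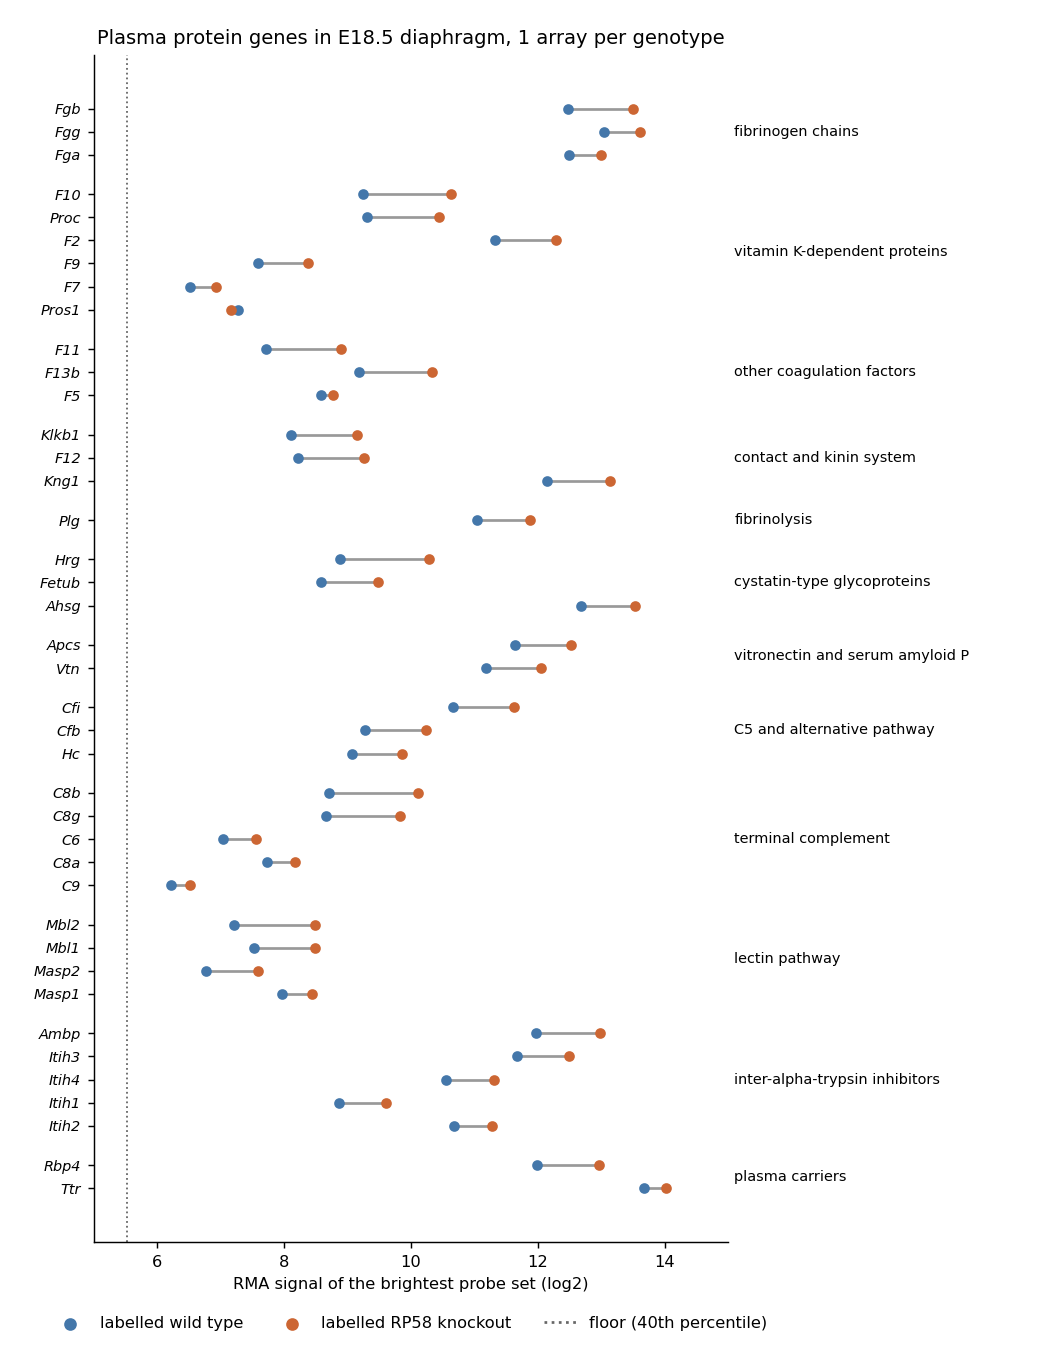
RMA signals (log2, horizontal axis) of the 40 plasma protein genes on the wild-type array (blue) and the RP58 knockout array (orange), grouped by role. Each grey line joins the pair of values of a gene, and the dotted line is the floor at 5.52; every orange point except that of Pros1 lies to the right of the blue point.

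The regions before the start sites of these genes were read from RefSeq (GRCm38.p6), where 33 of the 40 genes had an entry, with 36 windows of 250 bases in all. Liver genes are known to be driven by the factors HNF1, HNF4 and C/EBP, so their motifs and the TATA box were searched on both strands as GTTAATNAT (HNF1), CAAAGTCCA (HNF4), TTGCNNAA (C/EBP) and TATAAA. The HNF1 motif was found in 3 of 36 member windows (8.33%), those of Fga, Hc and F13b, and in 0.737% of all 32851 windows. The C/EBP motif was found in 10 member windows (27.8%) and in 9.56% of all windows. The TATA box letters stood in 5 member windows (13.9%) and in 12.4% of all, and the HNF4 letters in 0 member windows and in 0.384% of all. Matches overlapped each other in the Vtn window, which held TATAAA on both strands. A match describes the letters of a window and shows neither binding nor use in these samples. Only exact matches were counted, so a window without a match can still hold a variant of the site.

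Member windows were poor in CpG pairs: 29 of 36 (80.6%) held at most 5, against 49.6% of all windows, and their median GC content was 49.2% against 52.4%. The 6 windows that follow show the 3 with the exact HNF1 letters, then Fgb and Hrg, whose only exact match was to the C/EBP letters, and last Pros1. Pros1 was the only member below 0, and its window held none of the 4 motifs. The windows of C8b (1.41), F10 (1.38) and Mbl2 (1.28) also held none, while that of C9 (0.31) held the C/EBP motif. The Pros1 window had 15 CpG pairs and 64.4% GC, whereas that of Hrg had 0 CpG pairs and 36.4% GC. The richest member window was that of Rbp4 with 28 CpG pairs and 70.8% GC, a gene that differed by 0.97. The window of C9, which differed by 0.31, had 0 CpG pairs. Whether motifs or CpG pairs go with the difference was not tested. Each printed window is the sequence from 250 bases to 1 base before the start, on the gene's strand from 5′ to 3′. Capitals mark the motif matches.
Fga (chr3:83025903-83026152, plus strand): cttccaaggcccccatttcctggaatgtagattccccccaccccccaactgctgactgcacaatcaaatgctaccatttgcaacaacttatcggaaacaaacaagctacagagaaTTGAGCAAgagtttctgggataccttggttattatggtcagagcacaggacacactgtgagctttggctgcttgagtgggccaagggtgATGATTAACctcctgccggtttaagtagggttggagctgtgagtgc
F13b (chr1:139501457-139501706, plus strand): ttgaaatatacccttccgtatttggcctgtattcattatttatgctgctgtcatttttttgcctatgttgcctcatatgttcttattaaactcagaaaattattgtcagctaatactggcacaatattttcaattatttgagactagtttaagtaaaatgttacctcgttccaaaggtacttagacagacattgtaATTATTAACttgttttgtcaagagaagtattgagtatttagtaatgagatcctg
Hc (chr2:35061413-35061662, minus strand): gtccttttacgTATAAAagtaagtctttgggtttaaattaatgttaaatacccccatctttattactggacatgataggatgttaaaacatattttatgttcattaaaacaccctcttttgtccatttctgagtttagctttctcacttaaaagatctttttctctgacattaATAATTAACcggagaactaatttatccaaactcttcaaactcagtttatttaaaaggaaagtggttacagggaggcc
Fgb (chr3:83049864-83050113, minus strand): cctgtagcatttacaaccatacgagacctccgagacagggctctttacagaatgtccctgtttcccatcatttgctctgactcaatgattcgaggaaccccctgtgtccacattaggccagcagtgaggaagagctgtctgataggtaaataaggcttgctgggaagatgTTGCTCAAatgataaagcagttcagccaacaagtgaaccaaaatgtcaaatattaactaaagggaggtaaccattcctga
Hrg (chr16:22950822-22951071, plus strand): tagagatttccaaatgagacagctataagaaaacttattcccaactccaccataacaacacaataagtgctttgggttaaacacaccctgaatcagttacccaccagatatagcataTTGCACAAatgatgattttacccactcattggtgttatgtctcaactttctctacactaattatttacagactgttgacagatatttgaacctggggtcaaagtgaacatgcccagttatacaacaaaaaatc
Pros1 (chr16:62854057-62854306, plus strand): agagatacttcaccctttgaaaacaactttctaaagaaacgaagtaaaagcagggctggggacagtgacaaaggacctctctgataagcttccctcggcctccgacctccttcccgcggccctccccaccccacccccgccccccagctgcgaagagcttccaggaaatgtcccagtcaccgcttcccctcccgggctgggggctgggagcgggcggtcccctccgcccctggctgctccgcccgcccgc

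Among the 3 fibrinogen chains, which assemble into the precursor of fibrin, 1 passed the size rule and the median was 0.57. Fgb, the beta chain, had a signal of 12.48 on the wild-type array and 13.50 on the knockout array, a 2.02-fold difference. Fga, the alpha chain, was at 12.497 and 12.998 (0.50). Fgg, the gamma chain, was at 13.04 and 13.61 (0.57, just short of the size rule). All 3 were read by 1 probe set each near the top of the scale, above the 99th percentile of the wild-type array (12.23). The exact HNF1 letters searched stood in the Fga window and not in that of Fgb, the chain that differed most. The Fgb window holds aatattaac, a near match to these letters on the other strand, and near matches were not counted.

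The vitamin K-dependent proteins are clotting proteases and their regulators, whose calcium-binding residues need vitamin K. Of 6, 4 were higher and 5 were above 0, with a median of 0.88. F10, factor X, which activates prothrombin, was at 9.25 and 10.63, or 2.60-fold higher. F2, prothrombin itself, was at 11.33 and 12.29 (0.96). F9, factor IX, whose loss causes haemophilia B, was at 7.59 and 8.38 (0.79). Proc, protein C, which shuts down clotting by cutting activated factors V and VIII, was at 9.32 and 10.44 (2.18-fold). These 4 genes were higher by between 0.79 and 1.38. F7, factor VII, the partner of tissue factor at the start of clotting, was at 6.53 and 6.92, within the size rule at 0.40. Pros1, protein S, the cofactor of protein C, was at 7.28 and 7.16. Its difference of -0.12 is smaller than the probe set SD and would be 0.63 on the poly-A scale, and Pros1 is also made by endothelial and other cells.

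Of the other coagulation factors, 2 of 3 were higher. F11, factor XI, which activates factor IX, was at 7.71 and 8.89 (2.27-fold). F13b, the carrier subunit of the enzyme that crosslinks fibrin, was at 9.19 and 10.34 (2.21-fold). F5, factor V, the cofactor of factor X, was at 8.59 and 8.78, a difference of 0.19. F5 and Pros1 thus stood lowest of the clotting genes. F5 is also made by megakaryocytes, and whether other sources of F5 and Pros1 bear on their values was not tested.

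All 3 genes of the contact and kinin system were higher, with differences between 0.99 and 1.04. This system starts clotting on foreign surfaces and releases bradykinin. F12, factor XII, was at 8.22 and 9.26 (1.04). Klkb1, plasma prekallikrein, was at 8.12 and 9.16 (1.04). Kng1, kininogen, the source of bradykinin, was at 12.15 and 13.14 (0.99). Kng1 has a close paralog, Kng2, and how far the probe set reads both was not tested. Plg, plasminogen, the precursor of the fibrin-dissolving protease plasmin, was at 11.04 and 11.88 (0.85).

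The cystatin-type glycoproteins Hrg, Fetub and Ahsg were each higher. Hrg, histidine-rich glycoprotein, which binds heparin and plasminogen, was at 8.89 and 10.28, or 2.63-fold higher, and ranked the second of the 40 by difference. Ahsg, fetuin-A, an abundant fetal plasma protein that keeps calcium phosphate in solution, was at 12.68 and 13.54 (0.86). Fetub, fetuin-B, was at 8.59 and 9.48 (0.89). Vtn, vitronectin, an adhesive protein that also restrains the complement pore, was at 11.18 and 12.05 (0.87), and Apcs, serum amyloid P, differed by nearly the same amount (0.88). The members of both groups thus lay close to the median of the 40, apart from Hrg.

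In complement, C5 and the alternative pathway genes were higher, while the terminal components were uneven. Hc, which encodes C5, was at 9.07 and 9.86 (0.79). Cfb, factor B, the protease of the alternative pathway, was at 9.28 and 10.24 (0.95). Cfi, factor I, which inactivates C3b, was at 10.67 and 11.63 (0.96). Of 5 terminal genes, 2 were higher, with a median of 0.51 (0.84 with the floor at the 60th percentile, which leaves out C9). C8b, the beta chain of C8, was at 8.71 and 10.12, and its 2.66-fold difference was the largest of the 40. C8g, the gamma chain, was at 8.66 and 9.82 (2.24-fold). C8a, the alpha chain of the same complex, was at 7.73 and 8.18 (0.45), C6 differed by 0.51 and C9, the component that forms the ring of the pore, by 0.31. The last 3 were within the size rule and above 0.

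The lectin pathway recognises sugars on microbes. Its recognition proteins Mbl1 and Mbl2, mannose-binding lectins, were both higher. Mbl2 was at 7.21 and 8.49 (2.43-fold), and Mbl1 at 7.53 and 8.49 (0.97). Masp2, the protease that cuts C4 and C2, was at 6.77 and 7.60 (0.82). Masp1, whose gene also yields the protease MASP-3 and a truncated form by splicing, was at 7.98 and 8.44 by its brightest probe set, within the size rule at 0.47.

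The 5 genes of the inter-alpha-trypsin inhibitor family were all higher, by between 0.61 and 1.01. Heavy chains of this family can be linked to hyaluronan in the extracellular matrix. Ambp, the precursor of the light chain bikunin, was at 11.97 and 12.98 (2.01-fold). Of the heavy chain genes, Itih3 differed by 0.82, Itih4 by 0.76, Itih1 by 0.74 and Itih2 by 0.61, the smallest among the 30 genes past the size rule. Of the plasma carriers, Rbp4, which transports retinol, was at 11.99 and 12.96 (0.97). Ttr, transthyretin, which binds thyroxine and holds RBP4 in the circulation, was at 13.67 and 14.02 (0.35), with the brightest probe set of the 40.

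Agreement between probe sets could be read for 7 of the 40 genes, and the other 33 had 1 probe set each. Of all 53 member probe sets, 49 were above 0. Those of Masp2 lay at 0.82 and 0.90, those of F5 at 0.19 and 0.37, and those of Kng1 at 0.99 and 1.31. The probe sets of Vtn were further apart, at 0.87 and 1.68, and those of F10 lay at 1.38, 0.30 and 0.81. The 4 of Ttr ran from 0.18 to 0.72. The pooled SD within these genes, over 18 probe sets above the floor, was 0.39. Masp1 was the gene whose probe sets went both ways: the 2 brightest were at 0.47 and 0.41, a further one above the floor was at -0.45, and 2 under the floor were at -0.44 and -1.13. Averaged over its 5 probe sets, Masp1 was at -0.23, so it has no settled direction. The sources used here do not say which splice form each reads.

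**Figure D2:**
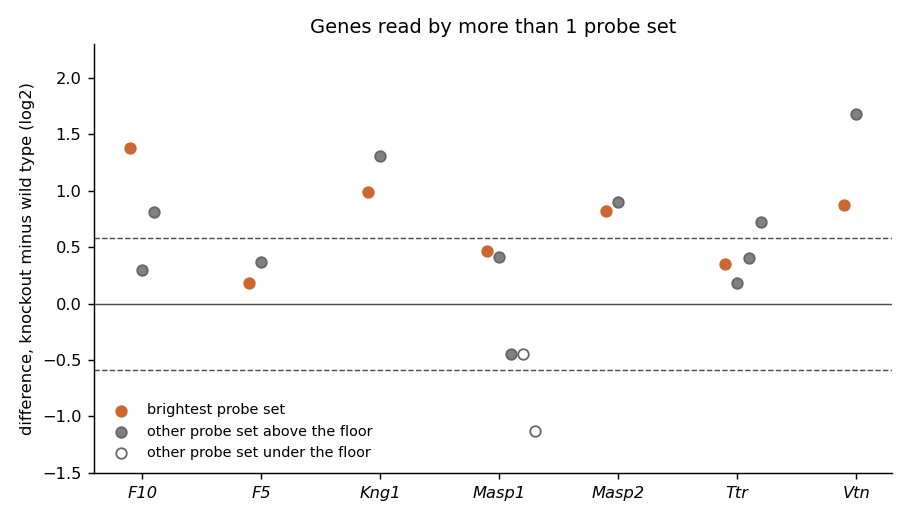
Differences (log2, vertical axis) of each probe set of the 7 genes with more than 1. The orange points are the brightest probe sets, grey points others above the floor and open points those under it; dashed lines mark 1.5-fold, and Masp1 alone has points on both sides of 0.

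The size of the difference had no straight-line relation to the wild-type signal. Over the 40 genes Pearson's r was 0.08 and Spearman's rho 0.09, a description across genes that share both arrays, and both quantities contain the wild-type value. The middle of the scale held the larger differences. The 11 genes with a wild-type signal under 8 had a median of 0.51, with 5 higher, and the 13 between 8 and 10 had a median of 1.04, with 12 higher. Of the 10 genes between 10 and 12, each was higher, with a median of 0.88. The 6 at 12 or more (Kng1, Fgb, Fga, Ahsg, Fgg and Ttr) had a median of 0.71, with 3 higher. Over all genes the share higher by 1.5-fold was 3.26%, 4.48%, 5.23% and 5.28% in these bands. C9, F7, C6 and C8a, which were within the size rule, lay in the lowest band, as did Mbl2 and F11, which were among the highest differences.

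**Figure D3:**
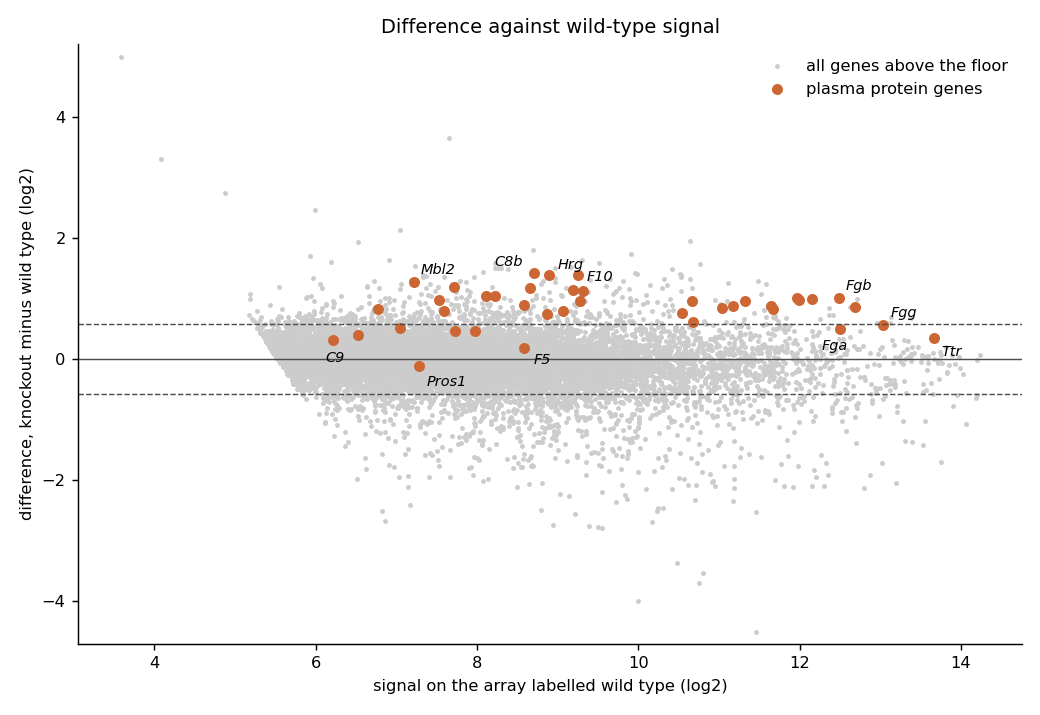
Difference between the arrays (log2, vertical axis) against the signal on the wild-type array (log2, horizontal axis) for the genes above the floor (grey) and the 40 plasma protein genes (orange). Dashed lines mark 1.5-fold, and 30 orange points lie at or above the upper line and 0 at or below the lower.

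The spread between the members was set beside that between probe sets of a gene. The SD of the 40 differences was 0.34, above the pooled probe set SD over 5675 genes (0.28). It was below that within the 7 members with several probe sets (0.39). Those 7 include F10 and Vtn, whose probe sets lay far apart, and Masp1, whose probe sets went both ways. Of the 40, 24 lay within 0.28 of the members' median. Above that range were 6 genes (C8b, Hrg, F10, Mbl2, F11 and C8g), and below it 10. Those more than 2 SDs (0.56) below the median were Pros1, F5 and C9. No member was that far above it.

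Several members are neighbours in the genome, so 11 pairs of members next along a chromosome, with at most 5 protein-coding genes between them, were set side by side. Of the adjacent genes on chromosome 14, Itih4, Itih3 and Itih1 differed by 0.76, 0.82 and 0.74. On chromosome 16, Ahsg (0.86) and Fetub (0.89) were nearly equal, while Hrg beside them was at 1.39. On chromosome 8, F11 (1.18) and Klkb1 (1.04) were alike, but F7 (0.40) and F10 (1.38) were 0.98 apart. On chromosome 4, C8b (1.41) and C8a (0.45) were 0.96 apart. On chromosome 3, Fgb (1.01) stood above Fga (0.50). The median gap was 0.41 over these 11 pairs and 0.32 over all 780 pairs of members. The 11 include Hrg with Kng1 (0.41, 1 gene between) and Kng1 with Masp1 (0.52, 5 between). With 0 genes between, gaps under 0.32 were those of Ahsg-Fetub (0.03), Itih4-Itih3 (0.06), Fgg-Fga (0.07), Itih3-Itih1 (0.08) and F11-Klkb1 (0.14). Those over it were Fetub-Hrg (0.50), Fga-Fgb (0.51), C8b-C8a (0.96) and F7-F10 (0.98). Whether neighbours were closer thus depends on the pairs taken and was not tested.

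Other genes of the same pathways were grouped into those made in liver, those made outside it and a mixed complement list. Of 11 further coagulation and complement genes made in liver that lay above the floor, each was above 0 and 7 were higher, with a median of 0.69. The largest were Serpina10 (1.23), which inhibits factor Xa, the antithrombin gene Serpinc1 (0.96) and the plasmin inhibitor gene Serpinf2 (0.95). Of 14 coagulation and fibrinolysis genes made outside the liver, 0 were higher and 1 was lower, with a median of 0.06. The lower gene was Procr, the endothelial receptor of protein C, at 6.24 and 5.63 (-0.61), while Anxa2, which binds plasminogen on cell surfaces, was at 0.56 (0.08 on its other probe set above the floor) and Tfpi2 at 0.38. Of 15 complement genes made by macrophages, stroma or many cell types, 3 were higher, with a median of 0.25: C1ra (0.86) and C1s1 (0.62), the proteases of C1, and Cfp, properdin (0.62), whose other probe set was at -0.18. Hepatocytes also make C1r, C1s and the C1 inhibitor (Serping1, 0.55), so this list is not free of liver products. The difference between the lists was not tested, since each genotype has 1 array.

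The list made outside the liver and the mixed complement list hold proteins that work in the same cascades as the members. Their values, already counted above and picked here after they were seen, are given beside those of the members and are no separate support. F13b, the liver-made carrier subunit of factor XIII, differed by 1.15, whereas F13a1, its catalytic subunit, made by macrophages and megakaryocytes, was at 9.16 and 8.89 (-0.27). Proc differed by 1.12, whereas thrombomodulin (Thbd), the endothelial cofactor with which thrombin activates protein C, differed by 0.19. Factor VIII (F8), made mainly by endothelium, differed by 0.06, and its carrier Vwf by 0.13. Among subunits of the recognition protein C1q, made by macrophages, C1qa and C1qb each differed by 0.25 and C1qc by 0.58.

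**Figure D4:**
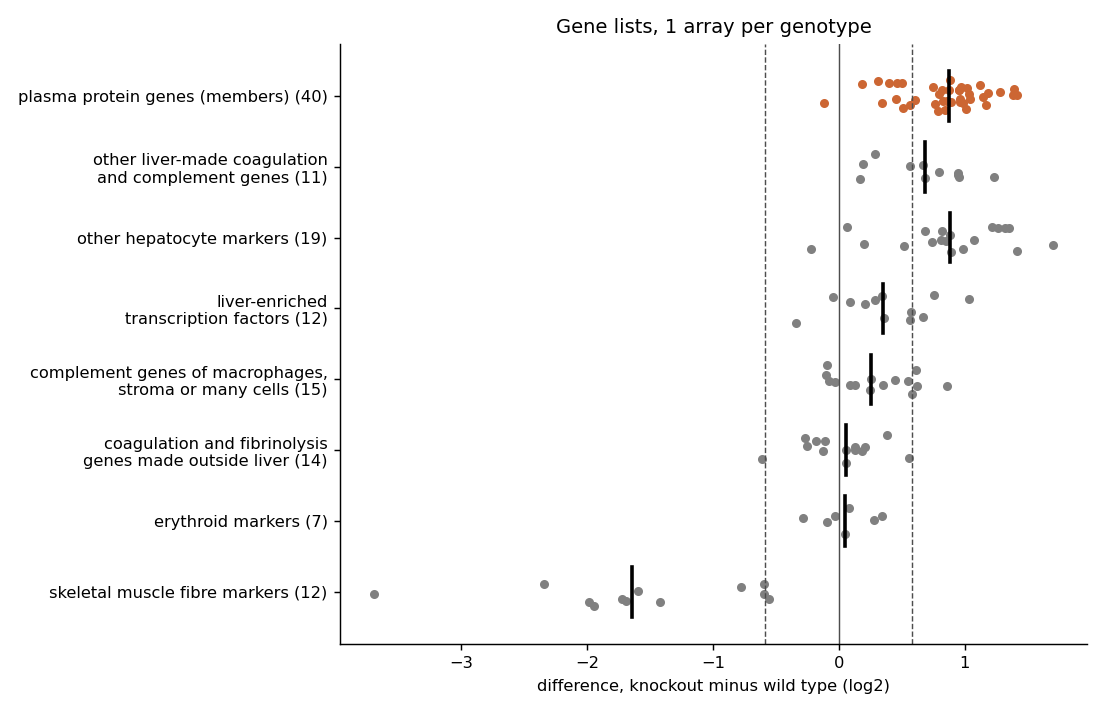
Differences (log2, horizontal axis) of each gene above the floor in 8 lists, with the number of genes in brackets; black bars are medians and dashed lines mark 1.5-fold. The members and the other liver-made genes lie mainly to the right (medians 0.88 and 0.69), the genes made outside the liver around 0 (0.06), and the muscle fibre markers to the left (-1.64).

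Transcription factors enriched in liver had a smaller median difference than the plasma proteins. Of 12 above the floor, 10 were above 0 and 3 were higher (5 under loess centring), with a median of 0.35. Several, such as Nr1i2 (6.54) and Foxa2 (6.94), had a wild-type signal under 8, where the members' median was 0.51. Others, such as Hnf4a (9.34), were above it, and the part of signal level in the gap was not tested. Nr1h4, the bile acid receptor FXR, was at 6.67 and 7.70 (1.03), Cebpa, which encodes a C/EBP factor, at 0.76 and Foxa2 at 0.67. Hnf4a differed by 0.57 at the brightest probe set, and its other 3 lay between -0.10 and 0.63.

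Markers of other liver cells and of neighbouring tissues were read on the same arrays. Of 19 other hepatocyte markers, 18 were above 0 and 15 were higher, with a median of 0.88, the same as that of the members, and their summed linear signal was 72296 on the wild-type array and 110441 on the other. Each sum is over all genes measured in a list, those under the floor included. The largest were Serpina6 (1.71), Arg1 (1.41) and Otc (1.35), while Alb, at 14.23 and 14.30, and Afp (0.20) differed little at the top of the scale, and Tdo2 was at -0.22. Liver macrophage markers had a median of 0.49, with Cd5l (0.90) and Timd4 (0.68) higher among 6, and sums of 2180 and 2838. Of 10 macrophage and leukocyte markers 1 was higher (Lyz2, 0.60; 0 were under median centring), with a median of 0.26 and sums of 8920 and 11307. Erythroid markers, whose cells the fetal liver also holds, had a median of 0.05 with 0 of 7 higher, and sums of 10270 and 10790.

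Bile duct markers had a median of 0.47, with Krt19 (1.12) and Krt7 (0.75) higher among 4 above the floor, Sox9 under it, and sums of 2203 and 3771. Mesothelium markers had a median of 0.53, with 3 of 8 higher and sums of 8174 and 12415, and both lists hold Krt19, so it counts in each. Lung epithelium markers had a median of 0.59, with 3 of 5 above the floor higher and sums of 643 and 3150. By the mean of both arrays Sftpa1, at 4.85 and 6.18 (1.33), lay just under the floor. Scgb1a1 (-0.47) and Nkx2-1 (-0.06) also lay under it. Sftpc (3.64), at 7.65 and 11.30, made up most of the second sum. The others above the floor ran from 0.12 (Sftpb) to 1.24 (Ager). With the floor at the 60th percentile the lung median was 1.24, and under that floor and under either centring Aqp5 (0.59) was no longer among those higher, which left 2. Muscle fibre markers had a median of -1.64, with 11 of 12 lower and sums of 82478 and 37979. No marker was at 0, since RMA signals have no zero. The part of these cell types in the differences of the plasma protein genes was not tested.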

How the data were processed

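Diaphragm muscle RNA was measured on Affymetrix mouse arrays, 1 per genotype. The deposited values are log2 signals per probe set, which the authors computed with RMA (background correction, quantile normalisation and probe summary), per the series' design text and the file's range of values, with Affymetrix Expression Console 1.1 per the submitters' processing notes. The design text names the 430A 2.0 array, while the 45101 deposited probe sets correspond, in the platform annotation, to a larger design of that family. Quantile normalisation removes differences in total mRNA. Number of arrays, not read depth, limits the precision.

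Of the probe sets, 34945 carried 1 symbol in the platform annotation, 932 several, 9160 none here and 64 were controls. Members' Entrez identifiers gave the same symbol in RefSeq (GRCm38.p6) for all 40. The brightest probe set of each gene was used, and genes under the 40th percentile of mean signal (5.52) were left out. Differences past 1.5-fold were counted, with no test. Members and lists were chosen with earlier results of these data known. All members were named, and from each other list up to 3 genes with the largest absolute difference above the floor, or up to 5 past the size rule; others, chosen after their values were seen, were named for contrast (Alb, Afp, Tdo2 and Hnf4a among them). Alternatives were the mean over probe sets, other floors, median or loess centring (fraction 0.3), scaling to poly-A spike-ins, no _s_at, _x_at or _a_at probe sets, and a 2-fold rule. The functions were tested on simulated data. Python 3.11.15, pandas 2.3.3 and statsmodels 0.14.6 were used.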

Additional observations from a re-analysis of the deposited data

How the results depend on the processing

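The median difference of the members ran from 0.86 to 0.90 over the alternatives other than poly-A scaling, and the count higher stayed between 29 and 30, apart from 23 of 32 genes without _s_at, _x_at and _a_at probe sets. Averaging probe sets moved F10 (0.83), Vtn (1.28) and Masp1 (-0.23) by more than the probe set SD. The 2-fold rule left 12 members higher, with 128 of all genes higher and 326 lower, and 1 of the other liver-made genes higher, 0 of the mixed complement list higher and 0 of the clotting genes made outside the liver lower. Procr, the 1 gene lower in that list, was under the floor at the 60th percentile (0 lower) and had no probe set without the _s_at kind (0 lower). The 24 poly-A spike-in probe sets had a median of -0.75, so scaling to them raised every difference by 0.75. The members' median became 1.63 with all 40 higher, but 9990 of all genes were then higher and 182 lower. In the same order as in the report, the other 3 pathway lists then had medians of 1.43, 0.81 and 1.0, with 11, 10 and 15 genes higher and 0 lower, and Pros1 moved to 0.63. The floor at the 60th percentile moved the bile duct median to 0.75, and dropping _s_at, _x_at and _a_at probe sets moved the median of the plasma carriers to 0.97 (Rbp4 alone) and left 1 bile duct and 2 macrophage and leukocyte markers higher. No paired analysis was possible because each genotype has 1 array. No replicate could be left out, and 1 array per genotype limits every value.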
